A study of Mus musculus with 18 samples.

Results

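The miR-17-92 cluster was followed through 18 small RNA libraries of UV-driven skin carcinogenesis, by way of 8 of its mature arms. These are miR-17-5p, miR-17-3p, miR-18a-5p, miR-19a-3p, miR-19b-3p, miR-20a-5p, miR-92a-3p and miR-92a-1-5p, taken by name (with the mouse prefix, from mmu-miR-17-5p, mmu-miR-17-3p and mmu-miR-18a-5p to mmu-miR-92a-1-5p) from a table of 1251 microRNA entries. The libraries came from 6 female littermate SKH-1E Hairless mice (an outbred strain prone to UV-induced skin tumours), numbered 2, 3, 7, 8, 9 and 10. Each mouse gave nonlesional chronically irradiated skin (CHR), a papilloma (PAP) and a cutaneous squamous cell carcinoma (cuSCC), so that each sample type had n = 6. All 3 sample types carry the same chronic exposure to solar simulators, and unexposed skin was not analysed here, so that CHR is irradiated skin and not normal skin.

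The cluster is transcribed as one primary RNA from which 6 hairpins are cut, and each hairpin can give an arm from its 5′ side (5p) and an arm from its 3′ side (3p). One arm of a hairpin is usually loaded into Argonaute as the guide, whereas the other, the passenger arm, is usually degraded. The cluster is a textbook oncogenic microRNA locus, induced by MYC and E2F factors in proliferating cells. Its arms repress cell cycle inhibitors and the proapoptotic BIM. Target choice rests mainly on the seed, bases 2 to 8 of the mature arm, so arms with a common seed are expected to share targets.

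The 6 hairpins lie on the plus strand within 836 bases of GRCm38.p6 at chr14:115043671-115044506. In the GENCODE annotation of the same build all 6 are in exon 2 of the lincRNA gene Mir17hg (chr14:115043271-115046727 for that exon), in the order Mir17, Mir18, Mir19a, Mir20a, Mir19b-1 and Mir92-1. The mature arms of miR-19b-3p and miR-92a-3p have the same sequence when cut from 2 hairpins, the second on the X chromosome (Mir19b-2 and Mir92-2), so their values cannot be assigned to chromosome 14 alone. The passenger arm miR-92a-1-5p comes from chromosome 14 only. All 8 arms matched RefSeq entries, and their sequences are shown so that arms with one seed, and arms of one hairpin, can be set beside each other in the results. Capitals mark the seed. The first pair carries the miR-17 seed, followed by the related miR-18 seed, the pair with the miR-19 seed, the miR-92 seed, and the arms from the opposite sides of the Mir17 and Mir92-1 hairpins.

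miR-17-5p: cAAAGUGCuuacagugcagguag
miR-20a-5p: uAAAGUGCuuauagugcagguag
miR-18a-5p: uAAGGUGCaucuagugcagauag
miR-19a-3p: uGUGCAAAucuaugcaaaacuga
miR-19b-3p: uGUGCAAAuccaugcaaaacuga
miR-92a-3p: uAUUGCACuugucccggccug
miR-17-3p: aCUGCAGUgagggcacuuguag
miR-92a-1-5p: aGGUUGGGauuugucgcaaugcu

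Counting positions from 1 at the 5′ end, miR-17-5p and miR-20a-5p differ at 2 of 23 bases (C1U and C12U), and miR-19a-3p and miR-19b-3p differ at 1 of 23 (U11C). Reads of such pairs differ by these bases alone, and how reads that could match both were divided is not given in the sources used here.

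The values are log2 of ppm, the share of usable reads, quantile normalized over the 18 libraries, so they give relative levels within a library. Entries at 3.32, which corresponds to 10 ppm and is the minimum of the table, were taken as not detected. The lowest detected value of a library lay between 3.32 and 6.83, and between 163 and 365 entries were detected per library, fewest in PAP (median 206.5 against 281.5 in CHR and 301.5 in cuSCC). The depth of each library is unknown. By the mean correlation of centred values with each sample type, 17 of the 18 libraries were most like their own type, and the cuSCC of mouse 10 was most like PAP (mean r = 0.408 against -0.12 with the other cuSCC). Values without mouse 10 are therefore given beside the results. In bulk samples of this kind, fewer cells of a type and less RNA per cell cannot be told apart. The 7 epithelial marker microRNAs were detected in every sample type, with summed log2 levels of 17.5 to 18.5 for CHR, of 17.8 to 18.6 for PAP and of 17.5 to 18.5 for cuSCC, so each tissue carried its epithelial markers. Singly, 4 of the 7 were higher in PAP than in CHR (median difference 1.24) and 3 of 7 in cuSCC (median 0.88), and 0 were lower in either (limma). Of all 293 microRNAs tested, 14% were higher and 18.4% lower in PAP (median -0.23). In cuSCC 20.1% of them were higher and 22.2% lower (median 0.11).

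The arms of this single transcript ranged from the most abundant microRNAs of the skin to complete absence of signal. miR-92a-3p stood far above the others at 16.28 ± 0.36 (mean ± SD, log2 ppm, n = 6) in CHR, between rank 6 and rank 10 of its library, whereas miR-17-5p stood at 6.78 ± 0.63 in the same samples. miR-19a-3p was not detected in any of the 18 libraries. miR-18a-5p was detected in 5 libraries, all of them cuSCC. miR-19b-3p was detected in 8 libraries, miR-20a-5p in 12, miR-17-3p in 15, and the arms miR-17-5p, miR-92a-1-5p and miR-92a-3p in all 18. The arms miR-18a-5p and miR-19a-3p did not reach the 6 libraries needed for testing, so 6 of the 8 members were tested among 293 microRNAs.

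The order of the levels was stable at its top only. In CHR, miR-92a-3p was followed by miR-92a-1-5p, lower by 9.0 on average with no overlap of ranges. Next came miR-17-5p, which overlapped miR-92a-1-5p in range and was lower than it in 5 of 6 libraries. miR-17-3p, miR-20a-5p and miR-19b-3p followed, each overlapping its neighbour. In PAP and in cuSCC miR-17-5p and miR-92a-1-5p were not separable (mean differences of 0.11 and 0.06), and both lay above the remaining arms without overlap with the next one down. In cuSCC the next was miR-20a-5p, which had overtaken miR-17-3p but overlapped it in range.

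**Figure D1:**
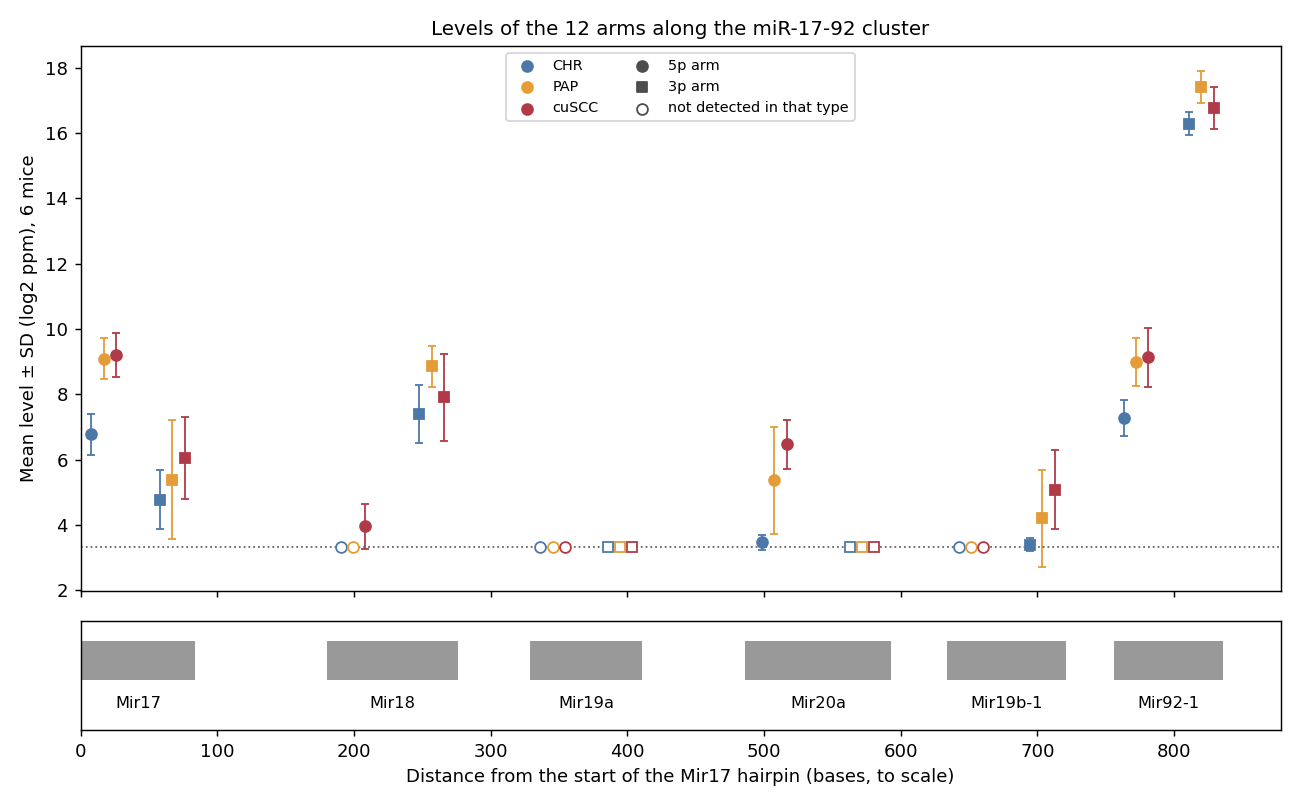
Mean level (log2 ppm, vertical axis) with SD over 6 mice for all 12 arms of the 6 hairpins, at the distance of their hairpin from the start of Mir17 in bases (horizontal axis). Circles are 5p arms and squares 3p arms, drawn on the left and right of their hairpin, open symbols stand for arms not detected in that sample type, and the dotted line is the lowest value, 3.32. The last hairpin gives the highest arm, miR-92a-3p, and 4 of the 12 arms stay on the dotted line in every sample type.

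The fully detected guide arm miR-17-5p rose in both lesions and in every mouse. Its level ran from 5.96 to 7.64 in CHR (median 6.89), from 8.40 to 9.88 in PAP (median 8.99) and from 8.40 to 10.09 in cuSCC (median 9.30). Every lesion therefore lay above every CHR sample, and PAP and cuSCC overlapped almost completely. The difference between PAP and CHR was 2.32 (SE 0.37, a 4.98-fold difference, limma adjusted p = 0.000405), and that between cuSCC and CHR was 2.41 (SE 0.38, 5.33-fold, limma adjusted p = 0.000232). Within mice the change ran from 1.43 to 3.71 in PAP and from 2.0 to 3.01 in cuSCC. Without mouse 10 the differences were 2.35 and 2.5.

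The passenger arm of the last hairpin, miR-92a-1-5p, which unlike miR-92a-3p can come from chromosome 14 alone, rose in both lesions as miR-17-5p did. It ran from 6.30 to 7.85 in CHR (median 7.47), from 7.92 to 10.02 in PAP (median 8.99) and from 7.88 to 10.26 in cuSCC (median 9.26). Again no lesion overlapped CHR and the change was positive in 6 of 6 mice for either lesion. The differences were 1.70 (SE 0.37, limma adjusted p = 0.0047) in PAP and 1.85 (SE 0.42, limma adjusted p = 0.00367) in cuSCC, or 1.45 and 1.65 without mouse 10.

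miR-20a-5p, the second arm with the miR-17 seed, went from near absence to clear detection. In CHR it was detected only in mice 9 and 10, at 3.82 and 3.70. In PAP it was not detected in mice 2 and 7 and stood between 5.76 and 7.05 in the other 4 mice, whereas in cuSCC all 6 mice lay between 5.21 and 7.09 (median 6.66). All cuSCC values were above all CHR values, with undetected samples at the minimum, while PAP overlapped both. In mouse 7 the lowest detected value of any microRNA was 5.77 in CHR and 6.72 in PAP. A level like the 5.21 of its cuSCC could thus have gone unseen in either library. The difference from CHR was 3.0 in cuSCC (SE 0.34, limma adjusted p = 1.93e-05, or 2.92 without mouse 10) and 1.90 in PAP (SE 0.63, limma adjusted p = 0.0367). The PAP difference did not pass without mouse 3, 8, 9 or 10 (1.61 to 1.81, limma adjusted p of 0.0904 to 0.119).

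miR-19b-3p, one of the pair of arms with the miR-19 seed, was detected in 1 CHR sample (mouse 10, 3.82), in 2 PAP (mouse 8 at 5.11 and mouse 10 at 6.83) and in 5 cuSCC (4.45 to 6.49), the exception being the cuSCC of mouse 8. The 6.83 was itself the lowest value detected in that PAP library. In the PAP libraries without detection the lowest detected value ran from 4.77 (mouse 2) to 6.72 (mouse 7). A level like 4.45 could thus have gone unseen in them. The samples at the lowest value make CHR and PAP overlap with cuSCC. It was detected in 3 libraries outside cuSCC and so reached the 6 libraries needed for testing only through cuSCC, the type in which it was high, so its cuSCC test is not independent of that filter. The difference between cuSCC and CHR was 1.67 (SE 0.47, limma adjusted p = 0.0122), and it was lost without mouse 3 (1.37, limma adjusted p = 0.0521) but not without mouse 10 (1.49, limma adjusted p = 0.0204). In PAP the difference was 0.80 (95% interval -0.43 to 2.03, limma adjusted p = 0.308). Its near twin miR-19a-3p, 1 base away, stayed at the lowest value throughout.

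miR-92a-3p, the guide arm of the last hairpin, had its highest mean in papilloma. It ran from 15.98 to 16.80 in CHR (median 16.17), from 16.80 to 17.97 in PAP (median 17.37) and from 15.98 to 17.71 in cuSCC (median 16.59). The lowest PAP sample equalled the highest CHR sample, and cuSCC overlapped both. PAP exceeded CHR in 6 of 6 mice, by 1.13 on average (SE 0.28, 2.19-fold, limma adjusted p = 0.00938, or 1.20 without mouse 10), and missed the threshold without mouse 7 (0.96, limma adjusted p = 0.0508). cuSCC exceeded CHR in 3 of 6 mice, with a difference of 0.49 (95% interval -0.22 to 1.19, limma adjusted p = 0.255), or 0.31 without mouse 10. The drop of 0.65 from PAP to cuSCC had an interval of -1.4 to 0.11 (limma adjusted p = 0.252), so the 2 lesions were not shown to differ. Red blood cells also hold much miR-92a. The erythroid markers (miR-451a and miR-486-5p detected, miR-144-3p at the lowest value in every library) had summed levels of 16.7 to 17.8 (CHR), 16.7 to 18.2 (PAP) and 14.9 to 17.9 (cuSCC), but they did not move as one. miR-451a exceeded CHR by 4.78 in PAP and by 3.99 in cuSCC (limma adjusted p = 0.00106 and 0.000747), whereas miR-486-5p differed by 0.55 in PAP (limma adjusted p = 0.208) and fell by 1.27 in cuSCC (limma adjusted p = 0.0325). The part of red blood cells in the miR-92a-3p values was not tested.

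miR-17-3p, from the passenger side of the first hairpin, was scattered. It ran from 3.32 to 6.10 in CHR (median 4.88), from 3.32 to 7.82 in PAP (median 5.51) and from 4.74 to 7.72 in cuSCC (median 5.70), with overlap among all 3 types. The values of 3.32 were samples without detection, the CHR of mouse 7 and the PAP of mice 7 and 10. The lowest detected values of these libraries were 5.77, 6.72 and 6.83, so a level like the cuSCC median could have gone unseen there. The difference from CHR was 0.61 in PAP (95% interval -1.04 to 2.25, limma adjusted p = 0.568) and 1.29 in cuSCC (95% interval 0.08 to 2.5, limma adjusted p = 0.0783). Blocking on mouse (replicate block), the cuSCC difference passed (limma adjusted p = 0.0329), positive in 5 of 6 mice. Without mouse 10 and without the block it was 0.99 (limma adjusted p = 0.191). Both differences depend on the minimum. With undetected values raised to the smallest value detected in their library, they were 1.35 in PAP (limma adjusted p = 0.023) and 0.88 in cuSCC (limma adjusted p = 0.191). With a minimum of 100 ppm they were 0.23 and 0.32 (limma adjusted p = 0.394 and 0.234).

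miR-18a-5p appeared in cuSCC alone. It was read at 3.52 in mouse 2, 3.50 in mouse 3, 3.81 in mouse 7, 4.48 in mouse 8 and 5.12 in mouse 9, and not at all in the cuSCC of mouse 10. These are values close to the limit, in the sample type with the most detected entries, and the lowest detected value of a PAP library reached up to 6.83, so a similar level in PAP could have gone unseen. The opposite arm of the same hairpin, miR-18a-3p, was detected in all 18 libraries at 7.40 ± 0.88 (CHR), 8.86 ± 0.62 (PAP) and 7.90 ± 1.32 (cuSCC). In every library the passenger arm of miR-18a was thus above its guide arm. It rose in PAP by 1.47 (SE 0.43, limma adjusted p = 0.0234), a call that was lost under the replicate block for mouse (adjusted p = 0.0756) and without mouse 7, 8, 9 or 10 (adjusted p of 0.0508 to 0.0693). In cuSCC its difference from CHR was 0.51 (limma adjusted p = 0.487). The other passenger arms, miR-19a-5p, miR-19b-1-5p and miR-20a-3p, were at the lowest value in all libraries.

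**Figure D2:**
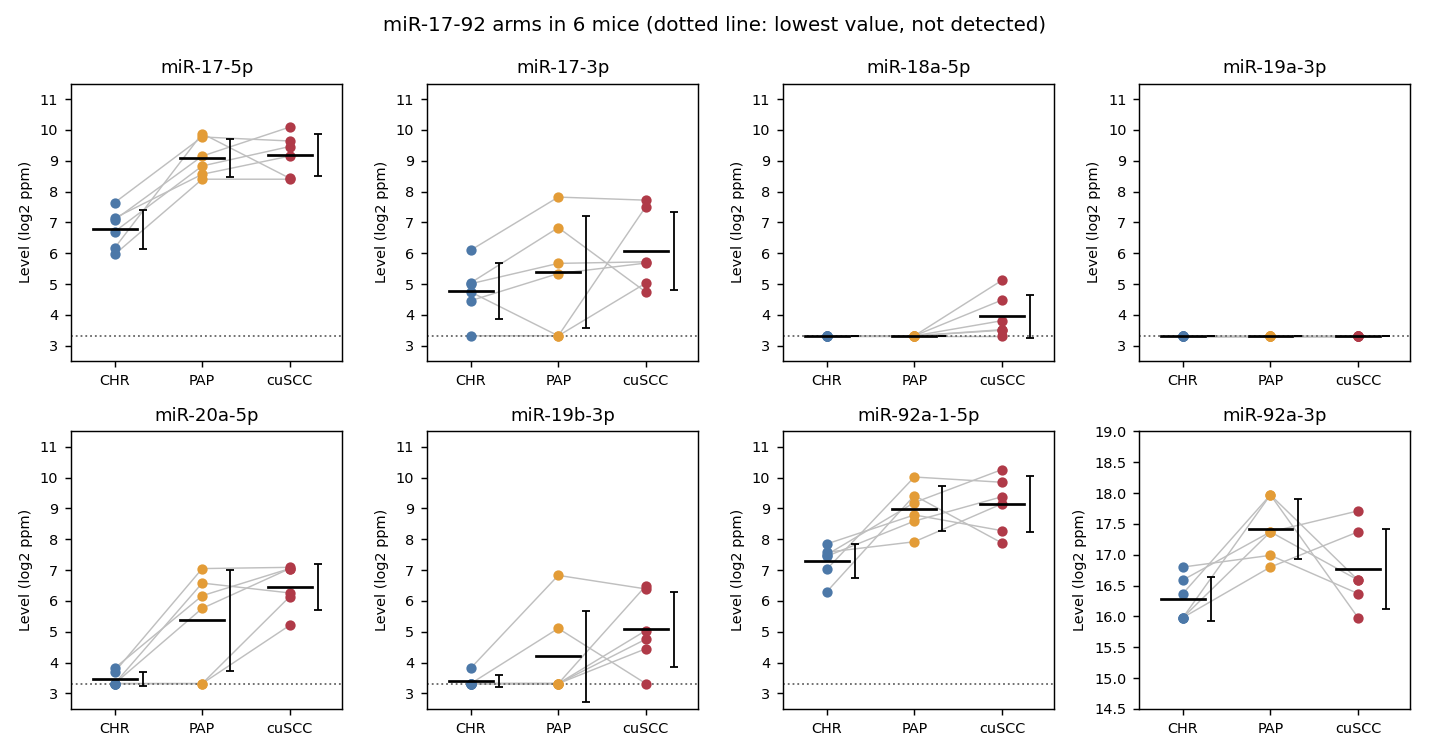
Level (log2 ppm, vertical axis) of each of the 8 arms in CHR, PAP and cuSCC (horizontal axis), with 1 point per mouse, grey lines joining samples of one mouse, black bars for means and whiskers for SD. The vertical axis of miR-92a-3p covers a higher range than the others, and the dotted line marks the lowest value, 3.32. miR-17-5p and miR-92a-1-5p rise in all 6 mice in both lesions, miR-20a-5p leaves the dotted line in 4 PAP and in all 6 cuSCC, and miR-18a-5p does so in cuSCC only.

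Counted together, 4 of the 6 tested arms were higher in PAP than in CHR (miR-17-5p, miR-20a-5p, miR-92a-3p and miR-92a-1-5p) and none was lower, where 14% of all 293 tested microRNAs were higher and 32.4% changed in either direction. Between cuSCC and CHR, 4 of the 6 were again higher (miR-17-5p, miR-19b-3p, miR-20a-5p and miR-92a-1-5p), where 20.1% of all tested microRNAs were higher and 42.3% changed in either direction. Without miR-19b-3p, which passed the detection filter only through cuSCC, 3 of 5 arms were higher. The median difference over the 6 arms was 1.42 in PAP and 1.76 in cuSCC, beside -0.23 and 0.11 over all tested microRNAs. miR-17-5p and miR-92a-1-5p were the arms without overlap in PAP (6.48% of tested microRNAs were higher without overlap), and miR-20a-5p joined them in cuSCC (9.9%). miR-17-5p and miR-92a-1-5p were also higher in all 6 mice in both lesions, joined by miR-92a-3p in PAP and miR-20a-5p in cuSCC, where 10.2% and 15.7% of tested microRNAs were. For miR-20a-5p, undetected CHR samples counted here at the minimum. Both comparisons use the same CHR samples.

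Between cuSCC and PAP, 0 of the 6 arms passed the limma test, 0 had an unadjusted p under 0.05 and 0 passed an exact permutation test. Of all 293 tested microRNAs limma called 11.6% (9.22% higher and 2.39% lower in cuSCC), 83 had an unadjusted p under 0.05, and the exact permutation test likewise passed 0. For the arms with full detection the intervals were narrow enough to bound a change: the cuSCC minus PAP difference lay between -0.73 and 0.92 for miR-17-5p and between -0.86 and 1.15 for miR-92a-1-5p. For miR-20a-5p it was 1.10 with an interval of -0.38 to 2.58. The cuSCC libraries exceeded PAP of the same mouse in 3 of 6 mice for miR-17-5p, in 5 of 6 for miR-20a-5p and in 2 of 6 for miR-92a-3p. Markers of other cell types, beside the epithelial and erythroid ones, moved between the same groups. The summed leukocyte markers ran from 12.1 to 13.1 for CHR, 8.95 to 11.2 for PAP and 10.8 to 12.3 for cuSCC, with miR-155-5p at the lowest value everywhere and miR-142-3p detected in 2 libraries. The leukocyte markers went opposite ways in cuSCC, where miR-142-5p exceeded CHR by 1.53 (limma adjusted p = 0.0132) and miR-150-5p fell by 2.33 (limma adjusted p = 0.000927). Skeletal muscle markers ran from 15.4 to 15.98 in CHR and from 5.16 to 14.2 in cuSCC, and in PAP 3 libraries held none while the others reached up to 12.4. The fibroblast and smooth muscle markers covered 14.3 to 15.01 for CHR, 11 to 13.9 for PAP and 12.5 to 15.4 for cuSCC, and the endothelial ones 7.84 to 9.35, 7.53 to 9.0 and 9.26 to 11.2. The part of these cell types in the values of the cluster was not tested.

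**Figure D3:**
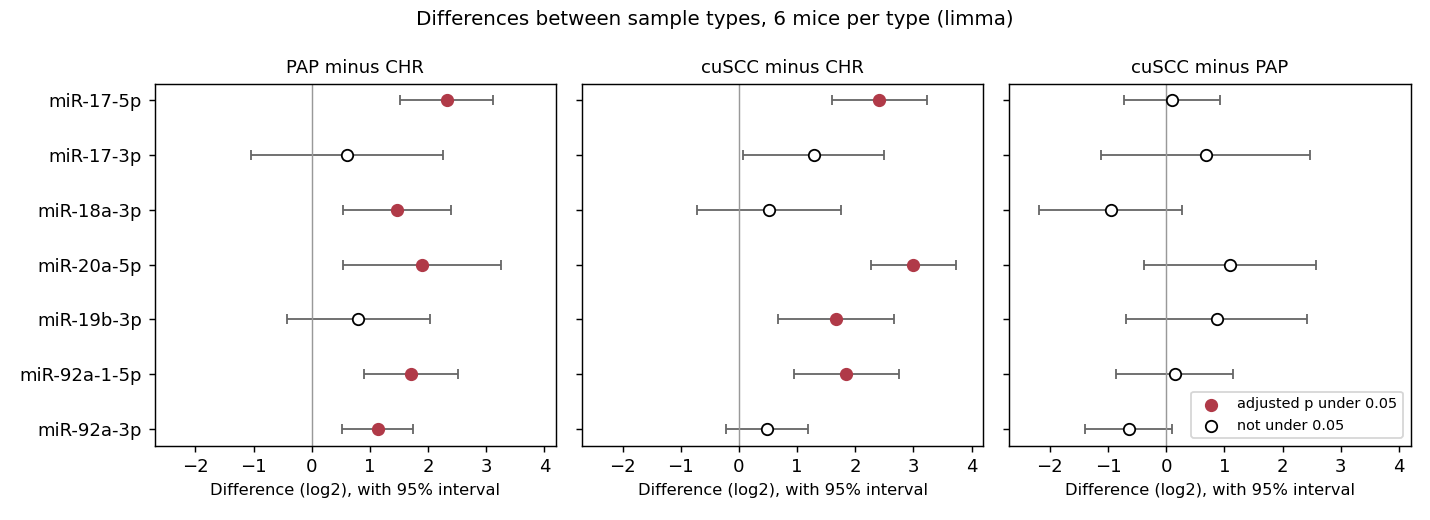
Differences between sample types (horizontal axis, log2) with 95% intervals from limma for the 6 tested arms and miR-18a-3p (vertical axis), in the order of their hairpins. Filled points have an adjusted p under 0.05. PAP and cuSCC both lie above CHR for miR-17-5p (2.32 and 2.41) and miR-92a-1-5p (1.70 and 1.85), and every interval for cuSCC minus PAP includes 0.

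Arms cut from one transcript need not change by equal amounts, so each arm was set against miR-17-5p within its own library. This removes a uniform scaling of the library but does not undo the quantile normalization. Of the 15 such comparisons (5 arms in 3 pairs of sample types), 1 passed. miR-92a-3p exceeded miR-17-5p by 9.50 ± 0.88 (CHR), 8.32 ± 0.78 (PAP) and 7.57 ± 0.51 (cuSCC). The individual differences ran from 8.34 to 10.84 (CHR), 7.03 to 9.41 (PAP) and 6.83 to 8.16 (cuSCC), and all 6 cuSCC lay below every CHR sample, with PAP overlapping both. The gap thus narrowed by 1.93 between CHR and cuSCC (exact permutation test, two-sided, p = 0.00216, adjusted over the 15 comparisons 0.0325), from a ratio of 724 to a ratio of 191. These are ratios of quantile normalized values and not of reads. The p is the smallest that 6 against 6 samples can give. Leaving out any 1 mouse kept every cuSCC below every CHR sample at the smallest exact p of that smaller design, 0.00794, with gaps of 1.74 to 2.19, but the adjusted exact p was then 0.0595 to 0.119. The exact sign-flip test within mice gave p = 0.0312, also the smallest it can give, and 0.234 after adjustment. In PAP the narrowing was 1.18 (exact permutation p = 0.0303, adjusted 0.187). miR-92a-1-5p, from the same hairpin as miR-92a-3p, kept closer to miR-17-5p, with a change of -0.57 between CHR and cuSCC (exact permutation p = 0.152, adjusted 0.253). Its change between CHR and PAP was -0.61 (exact permutation p = 0.141, adjusted 0.253). Leaving out each mouse gave -0.84 to -0.28 in cuSCC and -0.91 to -0.38 in PAP. The largest of these changes were those without mouse 10 (exact permutation p = 0.0238 for both, adjusted 0.0595). For miR-20a-5p the gap to miR-17-5p closed by 0.58 (exact permutation p = 0.0498, adjusted 0.187). Since miR-20a-5p was at the lowest value in 4 of 6 CHR libraries, that gap depends on the minimum, and the change was -0.11 with undetected values raised to the smallest value detected in their library and -2.01 with a minimum of 100 ppm.

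The arms of this contrast differ in base composition. miR-92a-3p holds 57.1% G and C, miR-17-5p and miR-92a-1-5p 47.8%, and miR-20a-5p and miR-19b-3p 39.1%. In each library, the deviation of each level from the mean of its microRNA over the 18 libraries was regressed on GC content. This used the 241 tested microRNAs with a RefSeq sequence (82.3% of those tested). The sign of a slope is thus relative to the average library and does not say whether GC-rich microRNAs stood high or low in it. The slope, in log2 per 10 percentage points, was 0.15 to 0.46 among CHR, -0.33 to 0.50 among PAP and -0.57 to -0.05 among cuSCC libraries, so that CHR and cuSCC did not overlap. Across the same 241 microRNAs, which share libraries and are not independent, the difference between cuSCC and CHR had a Spearman correlation of -0.47 with GC content, and that between PAP and CHR one of -0.23. After removal of this trend from each library, a step chosen after seeing the data, miR-17-5p still exceeded CHR by 2.25 in PAP and 2.24 in cuSCC, and miR-92a-1-5p by 1.63 and 1.68 (limma adjusted p of at most 0.00657 for all 4). miR-20a-5p exceeded CHR by 2.28 in cuSCC (limma adjusted p = 0.000125). The calls that changed were those of miR-19b-3p in cuSCC (0.95, limma adjusted p = 0.131) and miR-20a-5p in PAP (1.61, limma adjusted p = 0.0779), which were lost, and those of miR-92a-3p (0.90, limma adjusted p = 0.0297) and miR-17-3p (1.54, limma adjusted p = 0.0405) in cuSCC, which were gained. With the trend removed under the replicate block, miR-92a-3p in cuSCC no longer passed (adjusted p = 0.0676). The narrowing between miR-92a-3p and miR-17-5p was 1.34 with the trend removed (exact permutation, adjusted p = 0.0974).

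**Figure D4:**
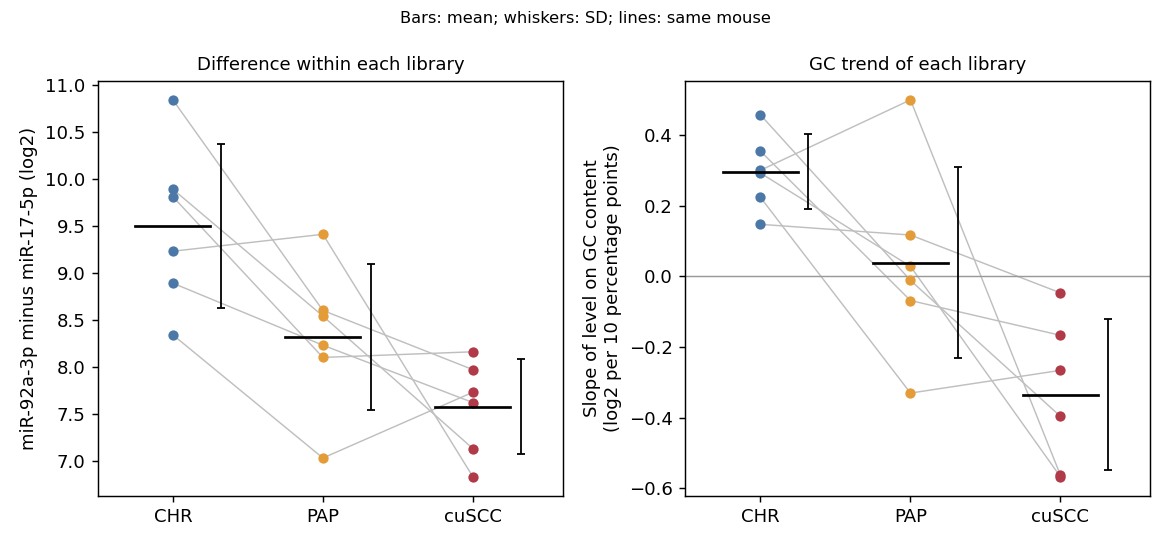
Left, the level of miR-92a-3p minus that of miR-17-5p in each library (log2, vertical axis), and right, the slope on GC content in each library (log2 per 10 percentage points), for CHR, PAP and cuSCC (horizontal axes), with grey lines joining samples of one mouse, bars for means and whiskers for SD. The slopes are of deviations from the mean of each microRNA over the 18 libraries, so their signs are relative to the average library. In both plots all 6 cuSCC lie below all 6 CHR samples and PAP overlaps both.

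The seeds of the cluster are shared with arms of the paralogous clusters miR-106b-25, in an intron of Mcm7, and miR-106a-363 on the X chromosome. The detected arms with the miR-17 seed and the miR-92 seed are shown. Those with the miR-92 seed moved in opposite directions, whereas those with the miR-17 seed did not.

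miR-106b-5p: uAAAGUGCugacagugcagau
miR-93-5p: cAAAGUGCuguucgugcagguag
miR-25-3p: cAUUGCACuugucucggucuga
miR-92b-3p: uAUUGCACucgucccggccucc

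Of the 10 arms of miR-106a-363 on the list, 0 were detected in any library. The arms particular to its hairpins miR-19b-2 and miR-92a-2, miR-19b-2-5p and miR-92a-2-5p, were among these, whereas miR-92a-1-5p of chromosome 14 was detected in all 18 libraries. Among the arms with the miR-17 seed, miR-93-5p was the most abundant (11.01 ± 0.29, 12.55 ± 0.51 and 12.13 ± 0.44 for CHR, PAP and cuSCC), above miR-17-5p in every type. It rose by 1.54 in PAP (SE 0.27, limma adjusted p = 0.000885) and by 1.12 in cuSCC (SE 0.28, limma adjusted p = 0.00594), with no overlap with CHR. miR-106b-5p behaved like miR-20a-5p in being detected in 2 CHR, 4 PAP and 6 cuSCC libraries, and it rose by 2.59 in cuSCC (SE 0.35, limma adjusted p = 7.77e-05), with 1.26 in PAP (limma adjusted p = 0.0919). All 4 detected arms with the miR-17 seed thus rose in cuSCC, where 20.1% of tested microRNAs did. With a minimum of 100 ppm the difference was 0.13 for miR-106b-5p (limma adjusted p = 0.457) and 0.21 for miR-20a-5p (limma adjusted p = 0.105). These calls thus depend on the minimum, whereas those of miR-17-5p and miR-93-5p were kept. miR-20b-5p and miR-106a-5p, with the same seed, stayed at the lowest value.

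Among the arms with the miR-92 seed, miR-25-3p had levels of 12.07 ± 0.37 (CHR), 13.47 ± 0.61 (PAP) and 12.99 ± 0.51 (cuSCC). It rose by 1.4 in PAP (SE 0.31, limma adjusted p = 0.00489) and by 0.93 in cuSCC (SE 0.30, limma adjusted p = 0.0238), the latter call being lost under the replicate block for mouse (adjusted p = 0.0563) and without mouse 3, 7 or 10 (adjusted p of 0.0566 to 0.063). miR-92b-3p, from its own locus outside the 3 clusters, went the other way. It ran from 10.54 to 11.82 (CHR), from 3.32 to 10.02 (PAP) and from 7.24 to 9.38 (cuSCC). All 6 samples of either lesion thus lay below every CHR sample, as did 9.56% of tested microRNAs in PAP and 10.6% in cuSCC. The difference from CHR was -2.5 in cuSCC (SE 0.39, limma adjusted p = 0.000223) and -3.06 in PAP (SE 0.94, limma adjusted p = 0.0292), where the PAP of mouse 10 was at the lowest value. Without mouse 10 the PAP difference was -1.97 (limma adjusted p = 0.00704), and without mouse 3, 7 or 9 it missed the threshold (adjusted p of 0.0546 to 0.0735). miR-92b-3p holds 63.6% G and C, and with the GC trend removed its differences were -1.68 in cuSCC and -2.72 in PAP (limma adjusted p = 0.00346 and 0.0286). miR-32-5p, miR-363-3p and miR-367-3p, which also carry the miR-92 seed, were at the lowest value in all libraries. The passenger arms of miR-106b-25 did not move as a group. miR-106b-3p rose in PAP by 1.4 (SE 0.28, limma adjusted p = 0.00262). Its difference in cuSCC was 0.26 (limma adjusted p = 0.547), and 1.09 with the GC trend removed (limma adjusted p = 0.0131, or 0.0368 under the replicate block). The other passenger arms miR-93-3p and miR-25-5p did not pass in either lesion.

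**Figure D5:**
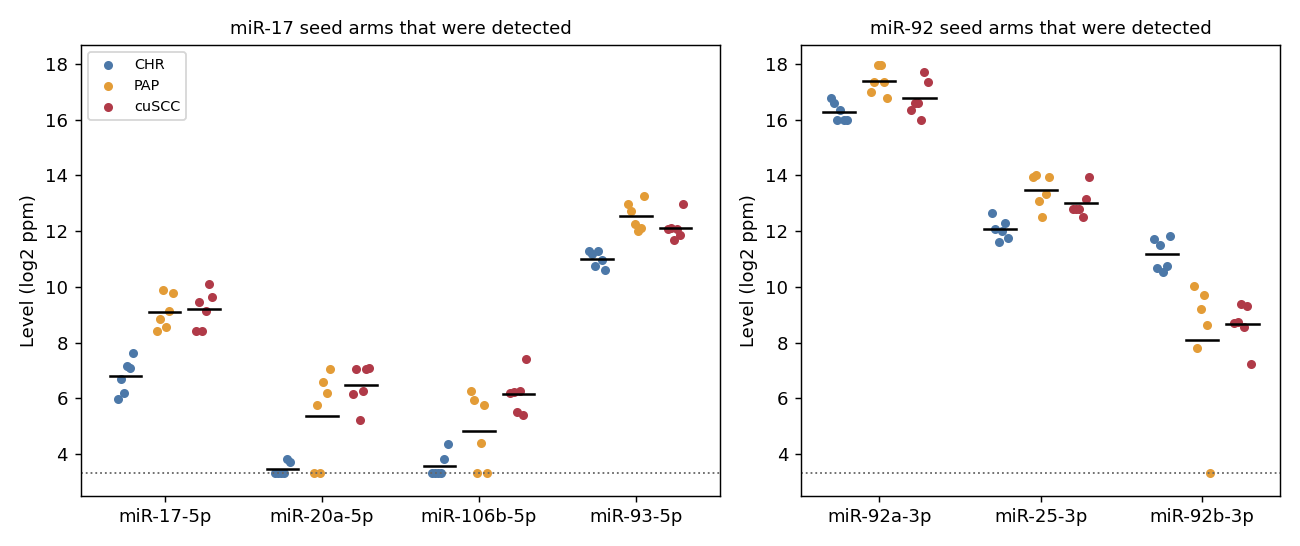
Level (log2 ppm, vertical axis) of the detected arms with the miR-17 seed (left) and the miR-92 seed (right) in CHR, PAP and cuSCC, with 1 point per mouse, bars for means and the dotted line at the lowest value, 3.32. The arms of the miR-17 seed all stand higher in cuSCC than in CHR, and on the right miR-92b-3p falls below CHR in both lesions while miR-25-3p stands above it.

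Because MYC induces this cluster and is known to repress another set of microRNAs, 17 microRNAs described as repressed by MYC were counted, of which 15 were tested. In PAP 0 of them were higher than in CHR and 2 were lower, miR-195a-5p (-2.23, limma adjusted p = 0.0101) and miR-150-5p (-2.62, limma adjusted p = 0.000641). Of all tested microRNAs 14% were higher and 18.4% lower in PAP than in CHR. miR-150-5p is also one of the leukocyte markers. In cuSCC 6 were higher, namely miR-15a-5p (1.99, limma adjusted p = 0.00501), miR-22-3p (1.81, limma adjusted p = 0.006), miR-30e-5p (1.36), miR-16-5p (1.34), miR-26b-5p (1.04) and miR-26a-5p (0.76), and 1 was lower, miR-150-5p. Of all tested microRNAs 20.1% were higher and 22.2% lower in that comparison. Between cuSCC and PAP 2 were higher, miR-22-3p and miR-34a-5p, and 0 were lower, where 9.22% of all tested microRNAs were higher and 2.39% lower. The median difference over the 15 was 0.13 in PAP and 0.66 in cuSCC against CHR, beside -0.23 and 0.11 over all tested microRNAs.

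The microRNAs most like the mean of the 6 tested arms across the 18 libraries, among 279 others tested outside the related clusters, were miR-210-3p (Pearson r = 0.84), miR-138-5p (0.83), miR-30e-5p (0.81), miR-98-5p (0.79) and miR-182-5p (0.78). All are correlations over libraries of 3 sample types that were normalized together, and they are given as a description. After removal of the mean of each sample type the values fell to 0.69 for miR-210-3p, the hypoxia-induced microRNA, which stayed the most alike, and to between 0.25 and 0.50 for the other 4. By Spearman correlation 4 of the 5 were again among the first 5.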

How the data were processed

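Small RNA of 6 CHR, 6 PAP and 6 cuSCC samples was sequenced, 1 sample of each type per mouse. The deposited values are log2 ppm: the authors trimmed adapters, discarded short and homopolymer reads, matched reads to miRBase by BLAST and divided by usable reads, and the quantile normalization and the minimum of 10 ppm were read from the values. The miRBase release and the read total of each library are not given in the sources used here. Quantile normalization gives every library one distribution, so levels are relative.

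microRNAs detected in at least 6 of 18 libraries (293) were compared between pairs of sample types, 6 against 6, with limma 3.58.1 in R 4.3.3, two-sided, with Benjamini-Hochberg adjustment over all 293 and a threshold of 0.05. Samples were grouped by their labels, and p-values measure the spread between these mice. The test was run on simulated data first. Differences between arms within a library were compared by exact permutation tests (Python 3.11.15, numpy 2.4.6), adjusted over 15 comparisons. Samples with one number come from one mouse. Their deviations from group means correlated by 0.025 (PAP and CHR), -0.0676 (cuSCC and CHR) and 0.0582 (cuSCC and PAP) on average, and a fit with mouse as replicate block was an alternative, beside other filters, minima, scalings and leaving out each mouse. Sequences and hairpin positions are from RefSeq (GRCm38.p6), for 29 of 31 arms looked up.

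The members, the lists (paralogs, seed families, MYC-repressed microRNAs, cell type markers) and the rule for named microRNAs were chosen with earlier results of these data known. Named were all listed cluster and seed arms, members of the MYC and marker lists as examples beside their counts, and the 5 tested microRNAs most correlated with the mean of the members.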

Additional observations from a re-analysis of the deposited data

Results flagged for a closer look

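Among 19 groups of 6 samples examined for a sample far from the others, 1 was singled out. miR-19b-3p was read at 3.82 in the CHR sample of mouse 10, while the other 5 CHR samples were at the minimum of 3.32. With 5 samples tied at the minimum any single detection is singled out, so the usual chance rate of such a test does not apply here.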

How the results depend on the processing

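Without a detection filter, with stricter detection, with libraries centred on their median, with the fit on all 3 sample types and with the replicate block, 3 or 4 arms were called in PAP and 3 to 5 in cuSCC against CHR, and 0 between the lesions (7 arms could be tested without a filter and 5 with the stricter one). The replicate block changed 1 call of the 6 arms, that of miR-17-3p in cuSCC, and otherwise those of miR-18a-3p in PAP and miR-25-3p in cuSCC. With 100 ppm as the minimum, 2 of the 6 arms were called in cuSCC, beside 36.3% of all 237 microRNAs then tested. miR-19b-3p then had a difference of 0.00 and miR-20a-5p one of 0.21 (limma adjusted p = 0.105). When each undetected value was raised to the smallest value detected in the same library, miR-17-3p (1.35, limma adjusted p = 0.023) and miR-19b-3p (1.53, limma adjusted p = 0.0173) also passed in PAP, and miR-19b-3p no longer passed in cuSCC (1.05, limma adjusted p = 0.0876). This step moved the median PAP minus CHR difference of all tested microRNAs from -0.23 to 0.44 (63 of 100 calls higher, against 41 of 95) and that of cuSCC minus PAP from 0.21 to -0.48 (18 of 80 higher, against 27 of 34). miR-20a-5p in PAP also missed the threshold without a filter (limma adjusted p = 0.0725), at 100 ppm (0.07 log2, limma adjusted p = 0.489) and by exact permutation (adjusted p = 0.138).

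Over all tested microRNAs the PAP to CHR count fell from 95 to 55 without mouse 3, 59 without mouse 7, 61 with the GC trend removed under the replicate block and, of all entries that vary, 65 without a filter. The cuSCC to CHR count fell from 124 to 77 without mouse 3 and 75 with the GC trend removed under the replicate block. The cuSCC to PAP count of 34 became 2 without a filter, 21 at 100 ppm, 9 with the GC trend removed (15 under the replicate block), 0 by exact permutation, 59 without mouse 10, 1 without mouse 3, 7 or 8, 9 without mouse 2 or 9, and 83 by a 1.5-fold change with an unadjusted p under 0.05. The GC steps were chosen after seeing the data.

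Reversals fell mainly on cuSCC minus PAP differences, none of which was called. With the GC trend removed, miR-17-5p was at -0.01, also under the replicate block. With undetected values raised in this way, miR-17-3p was at -0.47 and miR-19b-3p at -0.48, and at 100 ppm miR-19b-3p was at -0.03. Leaving out each mouse gave -0.07 to 0.4 for miR-17-5p, -0.02 to 1.23 for miR-17-3p and -0.07 to 0.48 for miR-92a-1-5p. Set against miR-17-5p within libraries, 3 arms differed in PAP and 4 in cuSCC at 100 ppm (0 and 1 as reported). In cuSCC the count was 0 with the GC trend removed, 0 by the exact sign-flip test (replicate block) and 0 on leaving out each mouse. The sign-flip and leave-out counts cannot show a loss, because a single arm at the smallest p could not pass the adjustment there. That smallest p is 0.0312 by the sign-flip test and 0.00794 by exact permutation without 1 mouse. miR-92a-3p stood at these values between cuSCC and CHR. In these within-library differences, cuSCC minus CHR of miR-20a-5p was -0.11 with raised undetected values and -2.01 at 100 ppm. cuSCC minus PAP was then -0.57 and -0.00062 for miR-17-3p, and -0.58 and -0.13 for miR-19b-3p. Leaving out each mouse gave -0.87 to 0.24 for miR-20a-5p (PAP minus CHR), and, for cuSCC minus PAP, -0.16 to 1.24 for miR-17-3p and -0.06 to 0.16 for miR-92a-1-5p. Of the 5 microRNAs most like the cluster, 1 was among the first 5 after removing sample type means. The cause of these changes was not tested. A pseudocount was not varied because the values carry a minimum. Library depth is unknown, so low arms (miR-17-3p, miR-18a-5p, miR-19a-3p, miR-19b-3p, miR-20a-5p) may be present below the lowest detected value of a library. That value lay between 3.32 and 6.83 log2 ppm, so in some libraries such an arm could exceed 10 ppm.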
